A study of Mus musculus with 21 samples.

Results

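The comparison described here sets untreated aggregates of mouse embryonic stem cells on day 3 of differentiation against the undifferentiated stem cells they were made from. Its members are the 3 arrays labelled as non-treated day 3 embryoid bodies, called day 3 control here, and the 3 arrays labelled as undifferentiated cells, called day 0. These are 6 of the 21 arrays of a series in which 7 groups of 3 biological replicates were hybridised to a mouse expression array, with and without ascorbic acid (AA), on days 0, 2, 3 and 5. All cells came from CGR8, an established mouse embryonic stem cell line, so no genetic difference separates the groups by design. Day 3 control cells were in a medium labelled 20% IMDM and had been dissociated and grown in hanging drops of 500 cells per 25 µL, with agitation on a shaker after day 2. Day 0 cells were in a medium labelled 10% GMEM. Neither group received ascorbic acid. The groups used beside these 2 are day 2 control and day 5 control, untreated aggregates in the same differentiation, and day 3 AA, aggregates given 100 µM ascorbic acid. By the design text, arrays were run only for experiments that showed more beating aggregates with ascorbic acid at later stages. Time, medium and aggregation changed together, and their parts in any difference below cannot be told apart.

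Mouse embryonic stem cells grown with leukaemia inhibitory factor (LIF) resemble the naive epiblast of the blastocyst and depend on a network around Pou5f1 (OCT4), Sox2 and Nanog, with naive factors such as Klf4, Esrrb and Zfp42 (REX1). On leaving that state they pass through a primed phase like the epiblast after implantation, marked by Fgf5 and Otx2. Cells that then respond to Nodal, Wnt and FGF signals switch on primitive streak genes such as Eomes and Mixl1, from which mesoderm and definitive endoderm arise. Nanog and Pou5f1 also have roles in the primed epiblast and the early streak, so they can remain expressed while naive genes are lost.

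Levels are robust multi-array average (RMA) values, which are log2 of a probe set's brightness, and a difference of 1 is a 2-fold change. Differences are day 3 control minus day 0, tested with limma over all 18193 genes. A gene is said to have risen or fallen only where its Benjamini-Hochberg adjusted p was under 0.05. Errors after a difference are standard errors. Each gene was read on the probe set brightest over all 21 arrays. Of 98 named or listed genes that passed and had other probe sets, 40 had one whose difference lay more than 1 away on the log2 scale, so a fold below is that of 1 probe set. Of the genes tested, 1951 rose (10.7%) and 1318 fell (7.24%) on day 3, together 3269 (18.0%), and 927 of these (5.1% of the genes) differed at least 2-fold. Every count of list members for this comparison is to be read beside the shares of 10.7% and 7.24%. The median difference over all genes was -0.01. With a spread estimated from the 6 arrays alone, 1044 genes rose and 537 fell. No array stood in for another: no pair of the 21 held identical values. The labels call the replicates biological without saying what was separate, so what the spread between arrays includes is not known. Unless stated otherwise, p-values rest on a spread pooled over the 7 groups of all 21 arrays.

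One array in each group stood apart. Day 0 replicate 1 correlated at 0.969 and 0.966 with the other day 0 arrays, which correlated at 0.989 with each other, and at 0.971, 0.969 and 0.975 with the 3 day 3 control arrays. It held values between the groups for many of the genes below. Day 3 control replicate 3 lay at -18.3 on the first principal component, which carried 54.6% of the variance of all 21 arrays, against -2.84 and -2.18 for replicates 1 and 2. Leaving out day 0 replicate 1 gave 2076 rises and 1905 falls, while leaving out replicate 3 of day 3 control gave 1613 rises and 1094 falls. The number of genes that fell was 874 without day 0 replicate 2. The difference between the 3' and 5' control probe sets of Actb, a measure of RNA integrity, was 1.03, 0.96 and 1.05 on day 3 and 0.79, 0.82 and 0.87 on day 0, and that of Gapdh overlapped between the groups. The part of RNA integrity in the results was not tested.

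Pou5f1 and Nanog did not differ beyond their error between day 3 aggregates and stem cells. Pou5f1, the core transcription factor of pluripotency, had levels of 11.69, 11.68 and 11.58 in day 3 control and 11.26, 11.88 and 12.13 on day 0, and its difference of -0.11 ± 0.25 had a 95% confidence interval of -0.63 to 0.42 (adjusted p = 0.85). Nanog, a homeodomain factor of the same network, had 11.67, 11.76 and 11.16 in day 3 control and 10.61, 11.90 and 11.94 on day 0, with a difference of 0.05 ± 0.35 and an interval of -0.69 to 0.78 (adjusted p = 0.96). The arrays of both groups overlapped for both genes. The intervals still leave room for a difference of -0.63 in Pou5f1 and -0.69 in Nanog, so equality was not shown.

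Nanog did change on the day between. In untreated cells its mean was 11.48 on day 0, 9.59 on day 2, 11.53 on day 3 and 5.90 on day 5, and both the day 2 fall (a difference of -1.89, adjusted p = 0.0016) and the rise between days 2 and 3 (1.94, adjusted p = 0.0033) passed the test. With a spread from the 6 arrays of days 0 and 2 alone, the day 2 fall did not pass (adjusted p = 0.062). Pou5f1 averaged 11.76, 11.51, 11.65 and 6.51 over the same days. The net comparison of day 3 with day 0 does not show this dip.

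**Figure D1:**
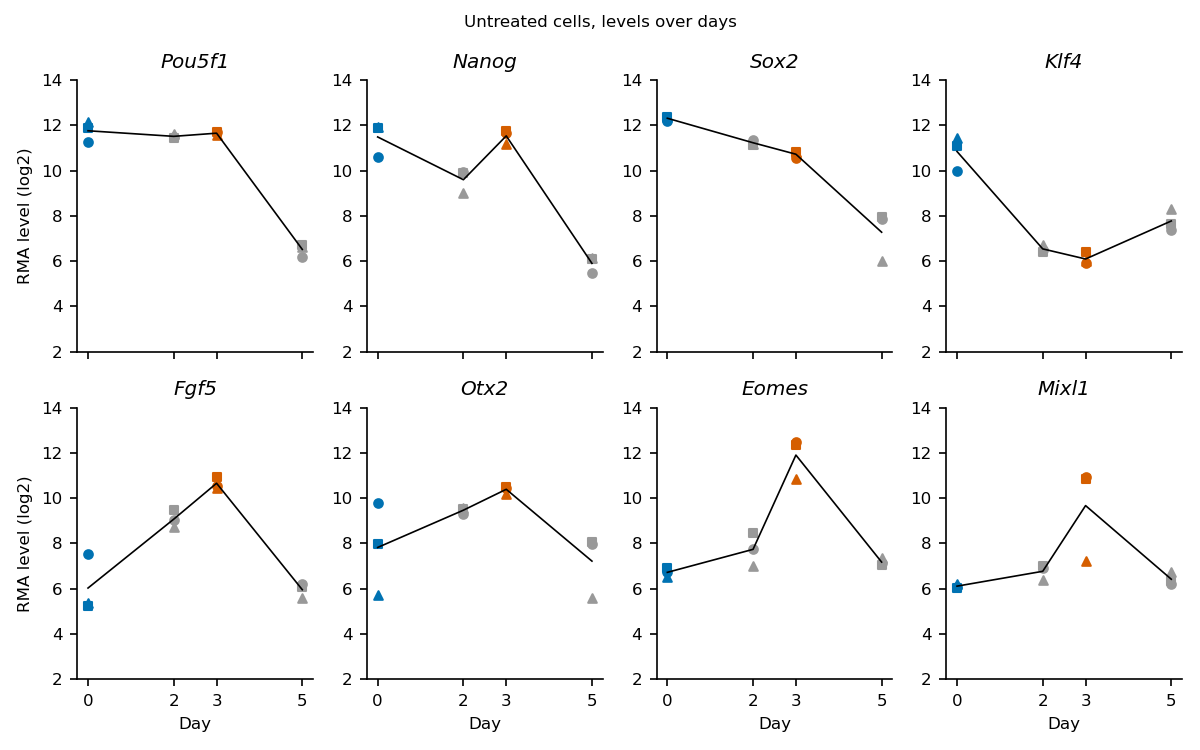
RMA levels (log2, vertical axes) of 8 genes in untreated cells by day (horizontal axes). Points are arrays (circle, replicate 1; square, replicate 2; triangle, replicate 3), with day 0 in blue, day 3 control in orange and the other days in grey, and lines join the means of 3 arrays. Nanog is at 9.59 on day 2 between means of 11.48 and 11.53, Klf4 is low from day 2 on, and Eomes and Mixl1 are highest on day 3.

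Sox2, the partner of OCT4, did change. Its levels were 10.55, 10.80 and 10.81 in day 3 control and 12.20, 12.37 and 12.36 on day 0, and the groups did not overlap. It fell by 1.59 ± 0.43 on the log2 scale, to a level 3.01-fold lower (adjusted p = 0.013), and this call was lost without day 3 control replicate 1 (adjusted p = 0.051). Of 17 measured genes of the core pluripotency list, 7 fell, none rose and 10 did not pass, with a median difference of -0.29. The others that fell were Fgf4, the FGF ligand of the inner cell mass (5.51-fold lower), Dppa2 (4.97-fold), the Nodal-related ligand Gdf3 (3.58-fold), Dppa4 (2.43-fold), Dppa5a (1.66-fold) and the co-repressor Trim28 (1.39-fold). The Dppa4 call was lost without day 0 replicate 3, day 3 control replicate 1 or day 3 control replicate 2, with an adjusted p of up to 0.088. For Fgf4 the day 3 levels were 6.78, 6.78 and 8.99 and the day 0 levels 9.48, 10.49 and 9.97, with day 3 control replicate 3 nearest to the stem cells. Sall4, Lin28a, Zfp281 and the Nodal co-receptor Tdgf1 did not pass, with differences of -0.08, 0.32, 0.25 and -0.20.

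All 17 measured naive pluripotency genes fell, against 7.24% of all genes, with a median difference of -3.14. For 16 of them no day 3 array reached the lowest day 0 array, and the arrays of the groups did not overlap for 27.9% of all genes. Klf4, a Krüppel-like factor downstream of LIF, had 5.90, 6.39 and 5.98 in day 3 control and 10.00, 11.09 and 11.43 on day 0. It fell by 4.75 ± 0.31 (26.9-fold lower, adjusted p = 1.5e-08), the largest fall among the genes named by size. Zfp42, a zinc finger gene widely used to mark naive cells, had 7.95, 8.33 and 8.28 in day 3 control and 10.91, 12.08 and 12.30 on day 0, 11.9-fold lower (adjusted p = 2.6e-07). Esrrb, an orphan nuclear receptor, had 6.89, 6.59 and 6.25 in day 3 control and 7.74, 8.15 and 9.57 on day 0, 3.76-fold lower (adjusted p = 0.00010). A second Esrrb probe set, brighter on day 0, had means of 6.22 in day 3 control and 10.01 on day 0, a larger difference of -3.79, and the last of its probe sets differed by -1.22.

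The size of the fall ranged widely within the list. Nr0b1 (DAX1, an OCT4-binding repressor) was 21.3-fold lower, Tcl1 (an AKT co-activator) 19.6-fold, Tfcp2l1 12.0-fold, Klf2 10.0-fold, Tbx3 6.98-fold, Nr5a2 6.20-fold and Klf5 6.03-fold. Prdm14, a repressor that keeps DNA methylation low, had levels of 4.19, 4.07 and 3.63 in day 3 control, near the low end of the array's range, and 5.04, 7.79 and 7.66 on day 0. Other probe sets of Tbx3 differed by -3.48 to 0.07, and those of Nr5a2 by -3.36 to -0.04. On the probe sets used, Pecam1 (2.16-fold), Jam2 (2.30-fold) and Dppa3 (2.34-fold) were least reduced. The order does not hold for Jam2, a junction gene, whose 4 other probe sets differed by -2.06 to -3.76. Dppa3 was the member whose groups overlapped, at 6.17, 6.15 and 6.45 against 7.56, 8.60 and 6.29, and its call was lost in 3 of 6 omissions of a single array (without day 0 replicate 2 or day 3 control replicate 1 or 2, adjusted p up to 0.18).

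Most naive genes had fallen by day 2. Of the 17 genes, 16 had fallen between day 0 and day 2 (background 6.99%), though 6 did with a spread from those 6 arrays alone, and 2 fell between days 2 and 3 (background 0.945%). These counts share arrays with the net comparison. Day 0 replicate 1 was the lowest stem cell array for most of these genes: Tcl1 had 7.83 there against 12.00 and 11.87, and Manba, a lysosomal enzyme gene, 7.59 against 11.04 and 11.31. Its median excess over the day 3 mean was 1.55 over the list, against 3.74 and 3.95 for the other day 0 arrays. The list count was still 17 without it, 17 without day 3 control replicate 3 and 16 without both.

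**Figure D2:**
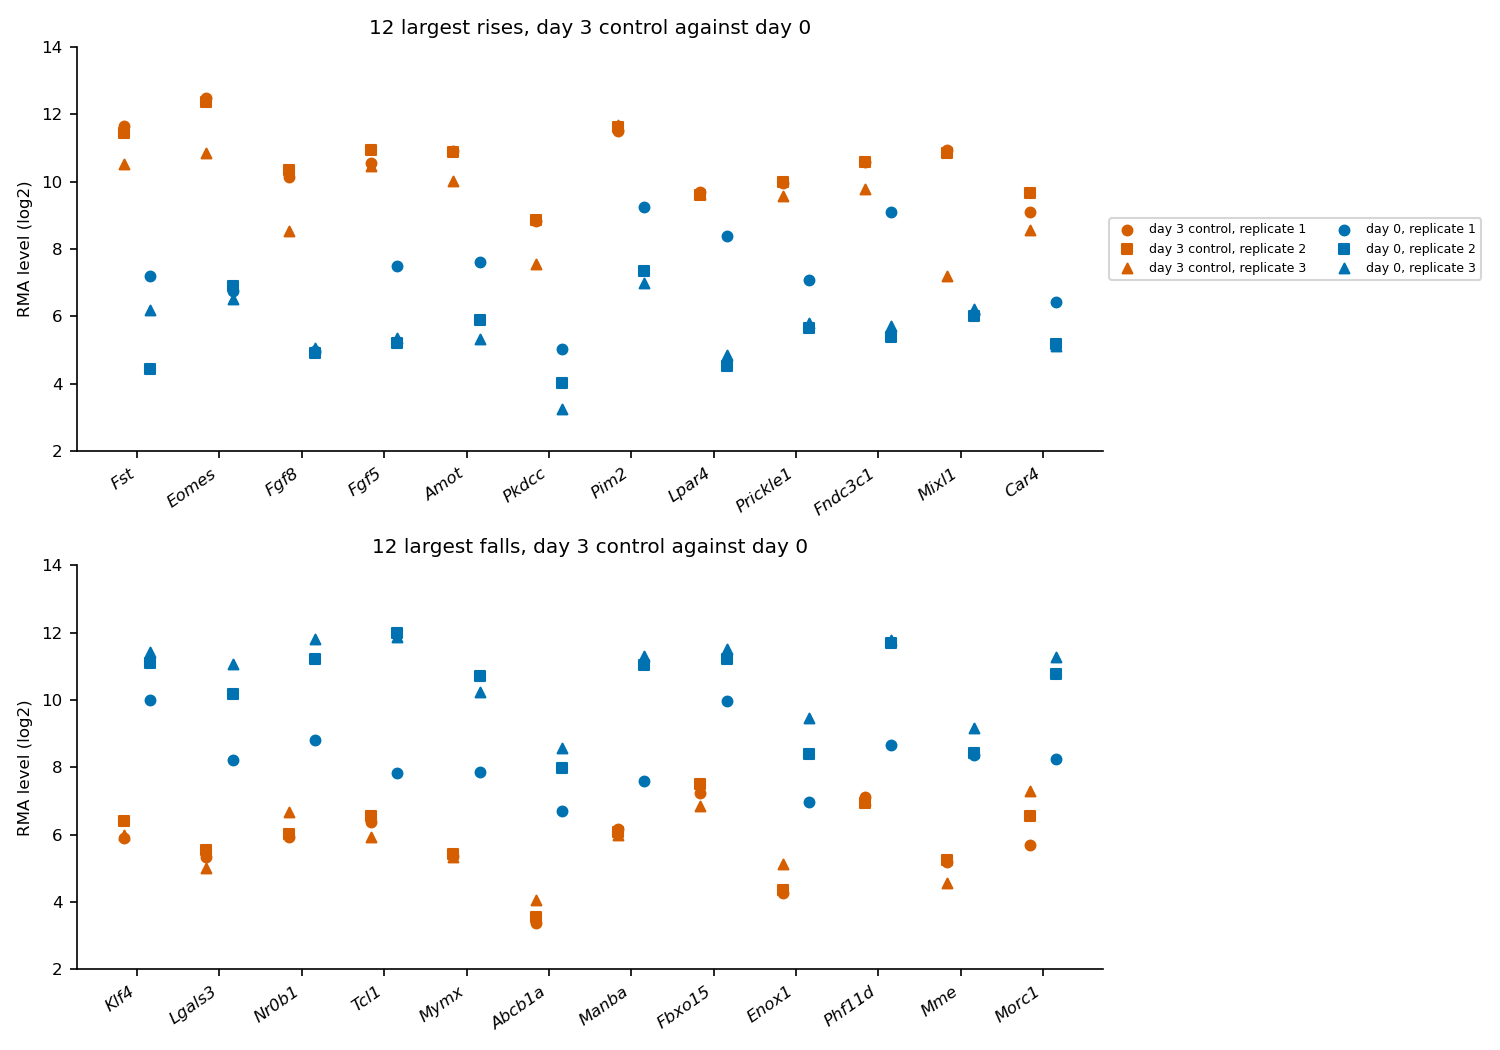
RMA levels (log2, vertical axes) on each array for the 12 largest rises (upper panel) and the 12 largest falls (lower panel) among genes that passed the test with groups that did not overlap. Orange is day 3 control and blue day 0, and shapes are replicates. Day 0 replicate 1 (blue circles) lies nearer to day 3 than the other day 0 arrays for Tcl1, Manba, Lpar4 and Fndc3c1, and day 3 control replicate 3 (orange triangle) is at 7.21 for Mixl1 against 10.93 and 10.86.

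The promoters of Nanog, Zfp42 and the Wnt target Sp5 are shown because Nanog did not differ beyond its error, Zfp42 fell and Sp5 rose, and each holds letters of a factor of this system near its start. Each is the RefSeq promoter of build GRCm38.p6, from 250 bases before the start site to 50 after it, 5′ to 3′ on the gene's strand, and capitals mark the matches. The searched letters, on both strands and without overlap among them, were TTTGCAT (part of the octamer bound by OCT4), CATTGT (a core bound by SOX factors) and CTTTGAT (a TCF/LEF site of the Wnt pathway). The first of 2 start sites listed for Nanog is on chr6:122707239-122707538 (plus strand), Zfp42 is on chr8:43306960-43307259 (minus strand) and Sp5 on chr2:70474673-70474972 (plus strand).
Nanog: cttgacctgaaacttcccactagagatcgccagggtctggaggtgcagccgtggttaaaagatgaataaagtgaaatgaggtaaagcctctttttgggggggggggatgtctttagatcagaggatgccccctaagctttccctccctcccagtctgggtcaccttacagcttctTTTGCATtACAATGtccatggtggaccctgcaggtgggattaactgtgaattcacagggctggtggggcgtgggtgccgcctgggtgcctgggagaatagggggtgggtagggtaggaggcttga
Zfp42: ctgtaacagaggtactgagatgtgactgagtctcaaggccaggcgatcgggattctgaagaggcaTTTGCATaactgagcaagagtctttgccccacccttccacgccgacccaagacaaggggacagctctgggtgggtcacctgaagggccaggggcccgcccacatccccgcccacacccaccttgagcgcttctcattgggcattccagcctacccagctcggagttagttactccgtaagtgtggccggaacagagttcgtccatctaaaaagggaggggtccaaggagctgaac
Sp5: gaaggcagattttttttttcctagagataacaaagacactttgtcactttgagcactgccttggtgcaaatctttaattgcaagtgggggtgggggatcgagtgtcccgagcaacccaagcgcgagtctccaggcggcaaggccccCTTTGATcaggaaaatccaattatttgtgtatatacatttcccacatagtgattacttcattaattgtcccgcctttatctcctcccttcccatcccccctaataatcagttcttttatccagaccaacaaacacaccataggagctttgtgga

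In the Nanog promoter the OCT4 letters begin 75 bases before the start site, and the SOX letters, on the opposite strand, begin 67 bases before it, 1 base after the OCT4 letters end. In the Zfp42 promoter the OCT4 letters begin 185 bases before the start, and in the Sp5 promoter the TCF/LEF letters begin 104 bases before it. Of 32851 promoters of this length, 4.63% hold the OCT4 letters, 12.6% the SOX letters and 3.73% the TCF/LEF letters. Nanog and Zfp42 both hold OCT4 letters, with Nanog at a mean of 11.53 on day 3 and 11.48 on day 0 and Zfp42 at 8.19 and 11.76. A match is a description of the letters and shows neither binding nor a cause.

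The LIF pathway fell with the naive genes. Of 10 measured members 7 fell and 1 rose, with a median difference of -1.13. Stat3, the transcription factor that LIF activates, had 7.84, 7.56 and 7.65 in day 3 control and 9.05, 8.97 and 9.37 on day 0, 2.73-fold lower (adjusted p = 6.2e-07). Its feedback inhibitor Socs3 had 6.67, 6.63 and 6.61 in day 3 control and 8.19, 7.77 and 8.19 on day 0, 2.66-fold lower. The 2 other Socs3 probe sets, both brighter on day 0 at means of 9.67 and 8.68, differed by -3.82 and -4.01, far more than the one used. One of 3 other Stat3 probe sets differed by 0.01. Neither pair of groups overlapped on the probe sets used. Bcl3 (3.48-fold lower), the adaptor Gab1 (2.46-fold), the kinase Pim1 (2.27-fold), the receptor subunit Il6st (2.11-fold) and Junb (1.49-fold) also fell. The call of Il6st was lost without day 0 replicate 2 or day 3 control replicate 3 (adjusted p up to 0.080). The phosphatase gene Ptpn11 rose 1.77-fold, and the receptor gene Lifr did not pass (8.58, 8.71 and 8.47 in day 3 control, 8.14, 9.96 and 10.10 on day 0).

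Genes that set or remove DNA methylation moved in both directions: of 8 measured, 2 rose and 4 fell. The de novo methyltransferase Dnmt3b had 12.84, 12.84 and 12.98 in day 3 control and 12.27, 10.54 and 10.36 on day 0, 3.56-fold higher (adjusted p = 0.00020), and Dnmt3a was 1.97-fold higher. Their cofactor Dnmt3l had 7.68, 8.12 and 8.71 in day 3 control and 10.49, 11.22 and 11.47 on day 0, 7.41-fold lower. The oxidases Tet2 and Tet1 were 8.79-fold and 3.26-fold lower, the maintenance enzyme Dnmt1 was 1.44-fold lower, and Tet3 and Uhrf1 did not pass. The groups did not overlap for any of the 6 that passed. Of 13 germline genes known to be silenced by promoter methylation, 6 fell, against 7.24% of all genes, and none rose (median -0.67). The groups did not overlap for 3 of the 13, against 27.9% of all genes. The number that fell was 2 without day 0 replicate 2, day 3 control replicate 1 or day 3 control replicate 2. Methylation itself was not measured. Tex19.1, a germline gene also expressed in stem cells, had 7.06, 6.71 and 7.82 in day 3 control and 9.30, 9.35 and 9.60 on day 0, 4.66-fold lower. Mael, of the piRNA pathway, had 5.30, 5.68 and 7.83 in day 3 control and 7.83, 8.61 and 7.76 on day 0, where day 3 control replicate 3 was at the stem cell level. Its call was lost without day 0 replicate 2 or day 3 control replicate 1 or 2 (adjusted p up to 0.093).

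Primed epiblast genes rose. Of 17 measured members 13 rose, against 10.7% of all genes, none fell, and the median difference was 1.59. Fgf5, the classical marker of the epiblast after implantation, had 10.55, 10.95 and 10.46 in day 3 control and 7.51, 5.21 and 5.35 on day 0. It rose 24.8-fold (a difference of 4.63 ± 0.42, adjusted p = 5.7e-07), and its second probe set differed by 2.04. Pim2, a kinase gene, had 11.51, 11.61 and 11.68 in day 3 control and 9.26, 7.36 and 6.99 on day 0, 13.3-fold higher. The 3 day 3 arrays were close together for both genes, while day 0 replicate 1 was the highest stem cell array.

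Otx2, the homeodomain factor that drives exit from the naive state, had 10.45, 10.51 and 10.20 in day 3 control and 9.76, 7.96 and 5.73 on day 0. It was 5.94-fold higher (adjusted p = 0.019), and its call was lost without day 0 replicate 3 or day 3 control replicate 1 or 2 (adjusted p up to 0.13). The spread lay in the stem cell arrays, while the day 3 arrays were close together. Zic2 (6.15-fold), Zic5 (4.39-fold), Sox4 (3.01-fold), Sfrp2 (2.49-fold) and Tead2 (2.17-fold) also rose. Lef1 (2.20-fold) and Sox3 (1.79-fold) rose with overlapping groups, and of the 6 omissions of a single array the Lef1 call held only without day 0 replicate 1 (adjusted p up to 0.21). That of Sox3 held only without day 0 replicate 1 or day 3 control replicate 1 (adjusted p up to 0.30).

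Pou3f1 (OCT6), another primed gene, did not pass. It had 8.47, 8.85 and 10.39 in day 3 control and 9.99, 5.83 and 6.28 on day 0, and its mean was 10.55 on day 2. Day 0 replicate 1 was above 2 of the 3 day 3 arrays. Leaving that array out gave 16 primed genes that rose and 1 that fell. Leaving out replicate 3 of day 3 control gave 11 that rose, and leaving out both gave 15 that rose and 1 that fell. From day 0 to day 2, 11 of the 17 had already risen (background 4.80%, and 4 of 17 with a spread from those 6 arrays alone), and 3 rose from day 2 to day 3 (background 4.86%, and 7 of 17 with the 6 arrays of days 2 and 3 alone).

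Eomes and Fgf8, both of the primitive streak list, were among the largest rises. Of 20 measured streak and nascent mesoderm genes 11 rose, against 10.7% of all genes, and none fell, with a median difference of 1.22. Eomes, the T-box factor of the streak and of definitive endoderm, had 12.49, 12.36 and 10.85 in day 3 control and 6.74, 6.90 and 6.51 on day 0. It was 36.3-fold higher (5.18 ± 0.43, adjusted p = 2.6e-07). Fgf8, needed for cells to leave the streak, had 10.13, 10.34 and 8.55 in day 3 control and 4.98, 4.91 and 5.05 on day 0, 25.9-fold higher (adjusted p = 1.0e-07). All 3 day 3 arrays were well above all 3 stem cell arrays for both genes. The gene T (brachyury) was not analysed here.

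Other streak genes were high on 2 day 3 arrays and near the stem cell level on replicate 3. Mixl1, a homeobox gene of the streak, had 10.93, 10.86 and 7.21 in day 3 control and 6.08, 6.02 and 6.22 on day 0 (11.8-fold higher, adjusted p = 0.0031). Gsc, the organiser homeobox gene, had 8.59, 8.75 and 5.22 in day 3 control and 4.65, 4.52 and 4.58 on day 0 (7.66-fold higher, adjusted p = 0.0057). Lhx1, a LIM homeobox gene of the anterior streak, had 8.93, 9.83 and 4.56 in day 3 control and 4.46, 4.41 and 4.30 on day 0 (10.4-fold higher, adjusted p = 0.014). In day 3 control replicate 3, Lhx1 was thus at 4.56, against at most 4.46 in stem cells. Leaving out replicate 1 or 2 of day 3 control ended the Lhx1 call (adjusted p up to 0.12), while those of Mixl1 and Gsc held in all 6 single omissions.

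Aplnr, the apelin receptor of nascent mesoderm, had 8.30, 8.71 and 5.13 in day 3 control and 5.28, 4.65 and 5.08 on day 0, and the groups overlapped (5.19-fold higher, adjusted p = 0.034). Pdgfra, a receptor of mesoderm and primitive endoderm, had 7.33, 7.22 and 5.68 in day 3 control and 5.27, 5.46 and 5.61 on day 0 (2.46-fold higher, adjusted p = 0.035). Among single omissions, the Aplnr call held only without day 0 replicate 1 or day 3 control replicate 3 (adjusted p up to 0.20), and that of Pdgfra only without day 3 control replicate 3 (up to 0.17). Other probe sets differed by 0.49 for Aplnr and by 0.10 and 0.14 for Pdgfra. Mesp1, the factor of early cardiac mesoderm, had 8.05, 8.18 and 6.95 in day 3 control and 7.12, 7.01 and 6.95 on day 0 and did not pass (0.70 ± 0.36, adjusted p = 0.22). Amot, an angiomotin gene, Dll3, a Notch ligand gene, and Evx1, a posterior streak homeobox gene, were 20.1-fold, 2.64-fold and 2.22-fold higher without overlap. Amot rested on 1 probe set, and 2 others for the gene differed by 0.03 and 0.17. Tbx6, Msgn1, Mesp2 and Kdr, genes of later mesoderm, did not pass, with differences of -0.20, -0.10, -0.05 and 0.07.

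The split between replicates 1 and 2 and replicate 3 was also present in the day 3 arrays with ascorbic acid, which were not part of this comparison. There, Lhx1 had 8.24, 8.80 and 4.88, Gsc 7.70, 8.19 and 4.86, Mixl1 10.36, 10.84 and 7.04 and Foxa2 10.44, 10.54 and 7.31. Eomes had 12.27, 12.20 and 10.78 and Fgf8 9.71, 10.02 and 8.64. Over the streak list, the median excess of a day 3 control array over the day 0 mean was 1.43 for replicate 1, 1.21 for replicate 2 and 0.15 for replicate 3. Without replicate 3, 12 streak genes rose, without day 0 replicate 1 10 did, and without both 12. With the 6 arrays alone 7 rose. From day 0 to day 2, 2 of the 20 had risen (background 4.80%), and 6 rose from day 2 to day 3 (background 4.86%).

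**Figure D3:**
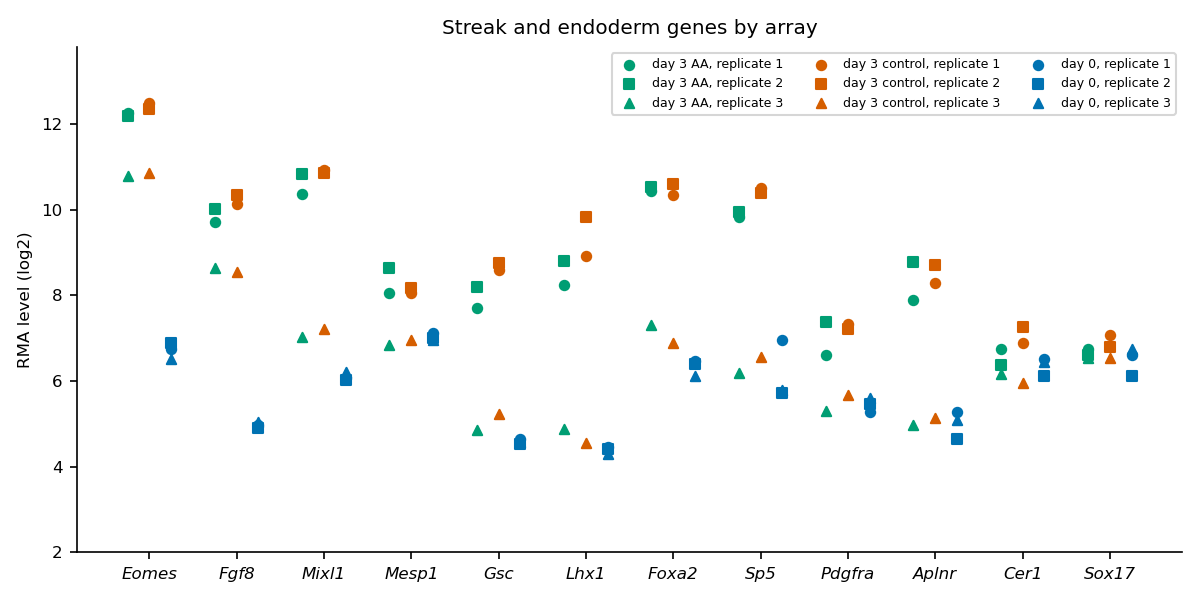
RMA levels (log2, vertical axis) of 12 streak and endoderm genes on each array, with day 3 AA in green, day 3 control in orange and day 0 in blue, and shapes for replicates. Replicate 3 (triangles) of both day 3 groups lies near day 0 for Gsc, Lhx1, Aplnr and Pdgfra, while for Eomes it is at 10.85 in day 3 control against at most 6.90 on day 0.

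Some definitive endoderm genes rose. Of 14 measured members 5 rose, against 10.7% of all genes, and 1 fell, against 7.24% (median 0.46). Dropping an array of day 3 control left 3 risers where it was replicate 1 and 2 where it was replicate 2, and the median over probe sets gave 8. Foxa2, the pioneer factor of endoderm and the anterior streak, had 10.34, 10.61 and 6.90 in day 3 control and 6.46, 6.40 and 6.12 on day 0. It was 7.76-fold higher (adjusted p = 0.010), a call lost without day 3 control replicate 1 or 2 (adjusted p up to 0.078). Trh, a hormone precursor gene, rose 2.38-fold and Foxa1 2.02-fold, the second call being lost without day 0 replicate 2 or day 3 control replicate 2 (adjusted p up to 0.14). The remaining risers, Lhx1 and Gsc, are shared with the streak list. Prdm1, a repressor gene, fell 2.78-fold. Sox17, a defining factor of endoderm, had 7.08, 6.79 and 6.55 in day 3 control and 6.60, 6.13 and 6.75 on day 0 and did not pass (adjusted p = 0.26). Cer1, Gata6, Cxcr4 and Hhex did not pass either, with differences of 0.36, 0.56, 0.04 and 0.07. Other probe sets differed by 1.47 for Cer1 and 1.11 for Sox17. In bulk RNA, a few cells with much of a transcript and many cells with little cannot be told apart, and the same holds for every fall.

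**Figure D4:**
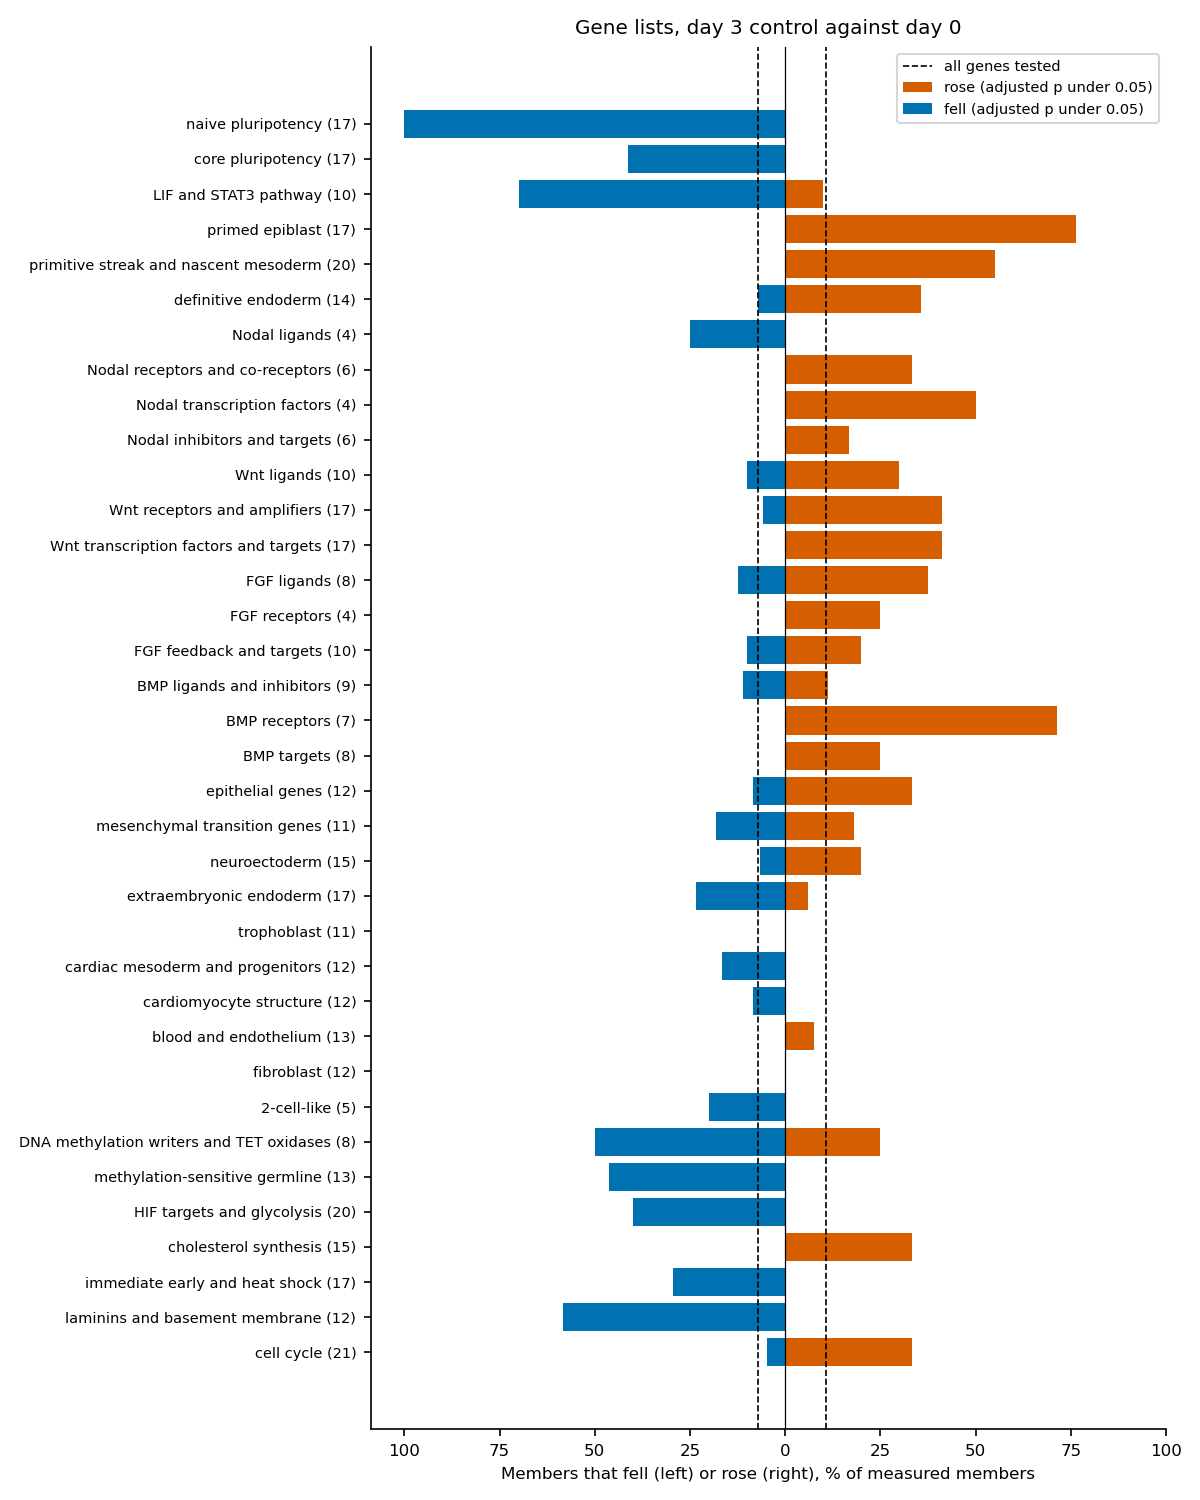
Share of measured members of each gene list (numbers in parentheses) that rose (orange, right) or fell (blue, left) in day 3 control against day 0, in percent. Dashed lines mark the shares of all genes tested, 10.7% higher and 7.24% lower. The naive list reaches 100% on the left, and the primed epiblast list has 13 of 17 members on the right.

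Among the signalling pathways, ligands, receptors and targets are given in that order. The Nodal ligand gene itself did not pass: it had 10.28, 10.46 and 10.75 in day 3 control and 10.74, 9.80 and 9.82 on day 0 (0.38 ± 0.21, adjusted p = 0.26). Gdf3 was the 1 of 4 ligands that fell. Of 6 receptors and co-receptors, Acvr2a (1.62-fold) and Acvr2b (1.36-fold) rose, and of 4 transcription factors, Smad4 (a difference of 0.56 ± 0.13) and Foxh1 (0.59 ± 0.17). Among single omissions, the Acvr2b call held only without day 0 replicate 2 or day 3 control replicate 1 (adjusted p up to 0.14), and that of Foxh1 only without day 0 replicate 1 (up to 0.076). Of 6 inhibitors and targets Pmepa1, a SMAD-induced gene, rose 1.84-fold, a call lost without day 3 control replicate 2 (adjusted p = 0.056). Lefty1, a secreted Nodal inhibitor, had 9.18, 9.49 and 9.80 in day 3 control and 11.36, 9.60 and 9.56 on day 0, and Lefty2 had 8.03, 7.93 and 7.27 in day 3 control and 7.46, 6.77 and 7.46 on day 0. Neither passed.

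Of 44 measured Wnt pathway genes 17 rose, 2 fell and 25 did not pass. Of 10 ligands 3 rose and 1 fell. Wnt3, the ligand that induces the streak, had 5.55, 5.75 and 5.25 in day 3 control and 4.09, 4.26 and 4.37 on day 0, 2.42-fold higher (adjusted p = 0.0053), and both groups lay low in the array's range. Wnt8a was 4.46-fold and Wnt5b 2.07-fold higher, Wnt6 was 1.42-fold lower, and Wnt3a did not pass (-0.12 ± 0.13). Of 17 receptors and amplifiers 7 rose and 1 fell. The number that rose was 5 without day 0 replicate 2 or 3 or day 3 control replicate 1 or 2. With the median over probe sets it was 4. Rspo3, which amplifies Wnt signals, had 7.60, 7.58 and 5.77 in day 3 control and 5.20, 4.73 and 4.58 on day 0, 4.43-fold higher, while its second probe set differed by 0.10. Fzd2 rose 3.07-fold and Rspo1 2.85-fold. Fzd3, Fzd6, Fzd8 and Lgr5 rose with differences of 0.78, 0.90, 0.64 and 0.65. Of 6 single omissions, 4 ended the Fzd8 call (adjusted p up to 0.097), 3 that of Lgr5 (up to 0.10) and 2 that of Fzd6 (up to 0.066). The Fzd3 call held in all 6. The other probe sets of Fzd6 differed by -0.04 and -0.09. Fzd5 fell 3.56-fold, a call lost without day 0 replicate 2 or 3 or day 3 control replicate 1 (adjusted p up to 0.098).

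Of 17 Wnt transcription factors and targets 7 rose, none fell, and the median difference was 0.33. The number that rose was 4 without day 0 replicate 3, day 3 control replicate 1 or day 3 control replicate 2. Axin2, a negative feedback gene that reports Wnt signalling in many tissues, had 9.38, 9.28 and 8.73 in day 3 control and 7.05, 7.75 and 7.47 on day 0, 3.26-fold higher (adjusted p = 0.00015). Sp5, whose promoter is printed above, had 10.51, 10.39 and 6.56 in day 3 control and 6.97, 5.72 and 5.80 on day 0, 7.94-fold higher (adjusted p = 0.016). The groups were apart for Axin2 and overlapped for Sp5, where day 3 control replicate 3 was under day 0 replicate 1. Among single omissions, the Sp5 call held only without day 0 replicate 1 or day 3 control replicate 3 (adjusted p up to 0.10). Sp8 (4.96-fold), Ccnd1 (2.46-fold) and Znrf3 (1.59-fold) rose, and the secreted inhibitor Dkk1 rose 1.94-fold with overlapping groups. The Dkk1 call held only without day 0 replicate 2 or day 3 control replicate 3 (adjusted p up to 0.20). Ctnnb1, which encodes beta-catenin, had a difference of 0.04 ± 0.07 and did not pass.

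FGF ligands moved in both directions. Fgf8 and Fgf5 rose, as given above, and Fgf4 fell, while Fgf10 rose 1.36-fold with overlapping groups and a call that held only without replicate 3 of either group (adjusted p up to 0.20). Of 4 receptors Fgfr1 rose 1.67-fold, a call that held only without day 0 replicate 1 (adjusted p up to 0.15), and the median over its probe sets differed by -0.20. Of 10 feedback genes and targets, Il17rd (2.56-fold) and the phosphatase Dusp6 (2.12-fold) rose. Dusp6 had 11.12, 11.06 and 10.60 in day 3 control and 9.61, 9.89 and 10.03 on day 0. Spry4, an inhibitor of the same pathway, had 7.21, 7.18 and 8.30 in day 3 control and 9.00, 8.94 and 10.06 on day 0 and was 3.41-fold lower. Both differences were without overlap and opposite in sign within 1 feedback group. Spry4 was the 1 feedback gene that fell, and 3 did without day 0 replicate 1.

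Of 9 BMP ligands and inhibitors 1 rose and 1 fell, close to the shares of all genes (10.7% and 7.24%). Fst (follistatin), a secreted inhibitor of activins and BMPs, showed the largest rise among the genes named by size. It had 11.65, 11.46 and 10.52 in day 3 control and 7.20, 4.45 and 6.18 on day 0, 38.5-fold higher (5.27 ± 0.48, adjusted p = 6.2e-07), and its second probe set differed by 4.27. Bmp4, a ligand that supports self-renewal with LIF and later induces mesoderm, had 7.26, 7.14 and 6.91 in day 3 control and 7.23, 10.31 and 11.00 on day 0. It was 5.31-fold lower (adjusted p = 0.0039), and day 0 replicate 1 was already at the day 3 level. The inhibitors Nog, Chrd and Grem1 did not pass, with differences of -0.08, 0.34 and 0.07. Of 7 receptor and SMAD genes 5 rose: Smad1 (2.69-fold), Bmpr2 (2.15-fold), Acvr1 (2.06-fold), Smad5 (1.86-fold) and Bmpr1a (1.83-fold), all without overlap. With the median over probe sets 3 of the 7 rose. Other probe sets differed by 0.14 and 0.28 for Bmpr2 and by 0.09 and 0.22 for Acvr1. Those of Bmpr1a differed by 0.07 to 0.98, those of Smad1 by 1.23 and 1.83 and those of Smad5 by 0.58 and 0.85. Of 8 targets Msx1 (2.75-fold) and Id3 (2.37-fold) rose, and the Id3 call held only without replicate 1 of either group (adjusted p up to 0.15). The second Msx1 probe set differed by 0.14. Id1 and Id2 did not pass, with differences of -0.40 and -0.03.

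**Figure D5:**
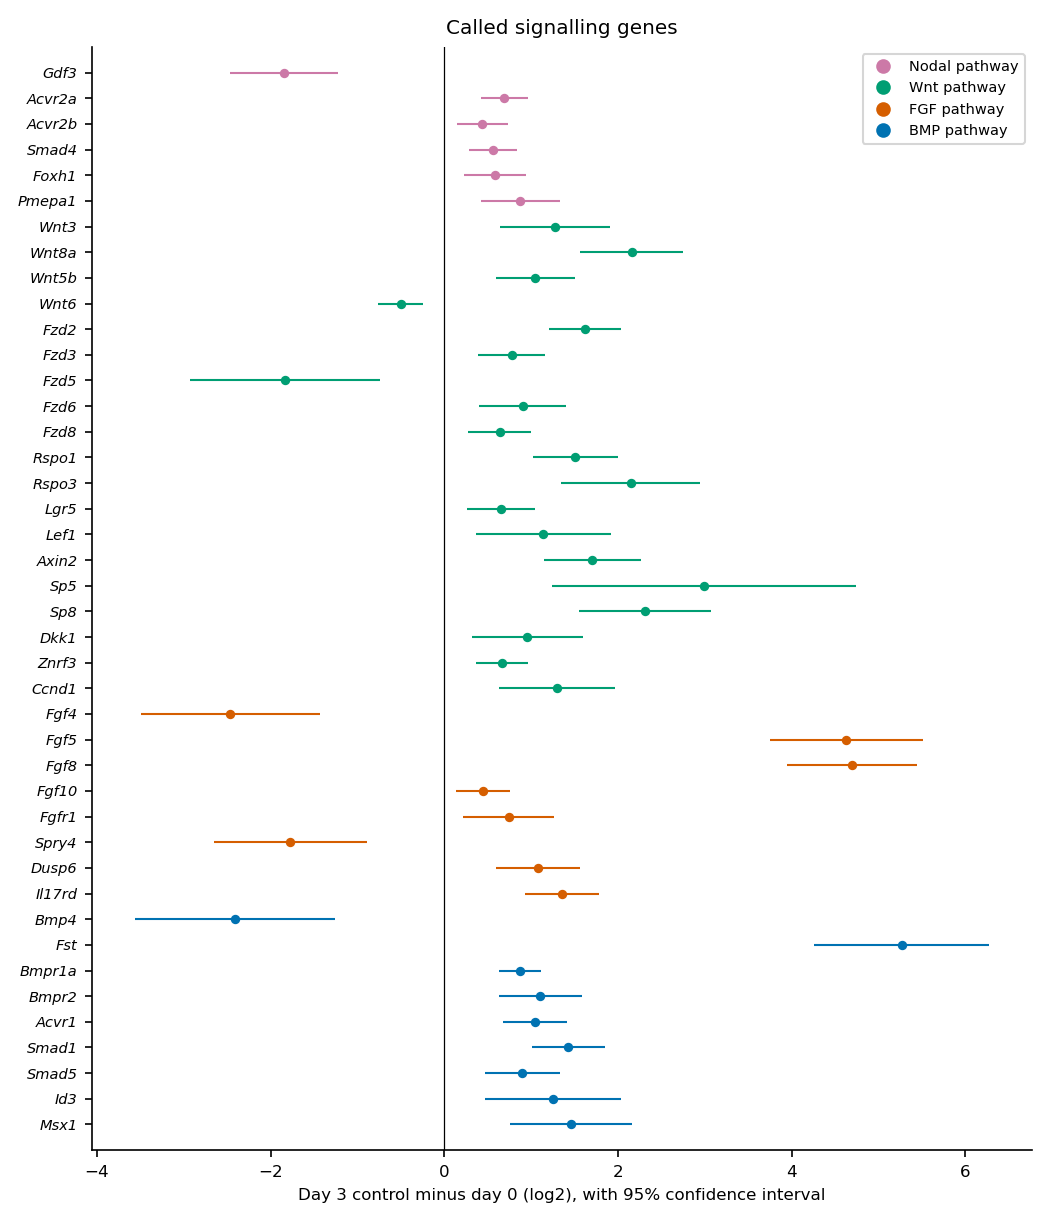
Differences in level (log2, day 3 control minus day 0, horizontal axis) of the 42 Nodal, Wnt, FGF and BMP pathway genes that passed the test, with 95% confidence intervals as bars and colours for pathways. Fst, Fgf8 and Fgf5 have the largest positive differences, and Fgf4 and Bmp4 the largest negative ones.

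More epithelial genes rose than fell, as was so over all genes. Of 12 measured epithelial genes 4 rose, against 10.7% of all genes, and 1 fell, against 7.24%. With the replicate block within the 6 arrays, 2 rose and 1 fell. Cldn7, a tight junction claudin, had 9.59, 9.65 and 9.98 in day 3 control and 8.58, 7.27 and 6.20 on day 0, 5.24-fold higher (adjusted p = 0.0015). The epithelial splicing factor Esrp1 was 4.29-fold higher, and the keratins Krt18 and Krt8 were 3.95-fold and 3.68-fold higher. Cldn4 was 3.56-fold lower. Cdh1, which encodes E-cadherin, had 11.52, 11.74 and 11.90 in day 3 control and 11.98, 11.18 and 10.94 on day 0 and did not pass (0.35 ± 0.36). Without day 0 replicate 1, 7 epithelial genes rose.

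Of 11 genes linked to mesenchymal transition 2 rose and 2 fell. Cdh11, a mesenchymal cadherin, had 8.86, 8.85 and 5.07 in day 3 control and 4.95, 3.78 and 3.99 on day 0 (10.2-fold higher, adjusted p = 0.0058), with replicate 3 again near the stem cells. The transcription factor Twist1 had 7.37, 7.09 and 6.46 in day 3 control and 5.74, 6.08 and 5.89 on day 0, 2.10-fold higher. Fn1 (fibronectin) and Vim (vimentin) were 4.51-fold and 2.10-fold lower. Snai1, the repressor that starts the transition in the streak, had 6.79, 7.06 and 6.19 in day 3 control and 6.28, 5.87 and 6.11 on day 0 and did not pass (adjusted p = 0.12). Without day 3 control replicate 3, 4 of the 11 rose, and 4 without day 0 replicate 1. The second Cdh11 probe set differed by 0.89. Day 0 replicates 2 and 3 of Cdh11 lay under 4, treated here as near background, which limits its fold.

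Basement membrane genes fell. Of 12 measured members 7 fell and none rose, with a median difference of -0.93. Nid1 (nidogen), which links laminin to collagen, had 6.91, 7.13 and 6.45 in day 3 control and 8.25, 10.93 and 10.80 on day 0, 8.96-fold lower (adjusted p = 4.8e-05). Lama1 was 4.68-fold, Nid2 2.92-fold, Lamc1 2.13-fold, Sparc 2.09-fold and Agrn 1.74-fold lower, with Fn1 the seventh. None of these pairs of groups overlapped, and the 7 calls held in all 6 single omissions. Col4a1, Col4a2 and Lamb1 did not pass, with differences of 0.19, -0.03 and 0.60.

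Genes of other lineages passed in shares that differed by list, where 18.0% of all genes did. Of 15 neuroectoderm genes 3 rose, against 10.7% of all genes, and 1 fell, against 7.24%. Sox11 (4.29-fold higher) and Nes (1.83-fold higher), which are not restricted to neural cells, rose with Sox3, and Gbx2, a gene also maintained by LIF, was 4.40-fold lower. Sox1, the defining early neural factor, had 5.85, 5.68 and 5.75 in day 3 control and 5.96, 5.85 and 5.75 on day 0 and did not pass. Its other probe set, at means of 3.92 in day 3 control and 5.35 on day 0, differed by -1.43. The summed neuroectoderm signal, as log2 of the sum of linear levels, was 11.12, 11.26 and 11.18 in day 3 control and 10.52, 10.31 and 10.43 on day 0. Such a sum is carried by the brightest genes, here Sox11 at means of 9.86 and 7.76. The mean log2 level of the list was 6.20, 6.15 and 6.26 in day 3 control and 6.12, 6.02 and 6.09 on day 0. Its median difference was 0.05.

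Of 17 extraembryonic endoderm genes 4 fell, against 7.24% of all genes, and 1 rose, against 10.7%. The number that fell was 2 without day 0 replicate 2 or 3 or day 3 control replicate 2 or 3. Lama1 and Sparc, given above, were joined by Sox7 (1.71-fold lower) and Hnf4a (1.35-fold lower), whose calls held only without replicate 1 of either group (adjusted p up to 0.11 and 0.20), and the endocytic adaptor Dab2 was 2.38-fold higher. The defining genes Gata4, Afp and Ttr did not pass, with differences of -0.06, 0.03 and 0.16. Other Ttr probe sets differed by 1.52, 1.19 and 1.13, from low day 0 means of 4.20, 4.04 and 3.21. The summed signal of the list was 11.83 to 11.98 in day 3 control and 12.02 to 12.38 on day 0. Its mean log2 level overlapped, at 7.05 to 7.15 in day 3 control and 6.98 to 7.36 on day 0. None of 11 trophoblast genes passed, Cdx2 having 7.19, 7.18 and 6.38 in day 3 control and 6.38, 6.25 and 6.24 on day 0 (adjusted p = 0.21). None of 12 fibroblast genes passed.

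None of the listed genes of the heart, the lineage that the wider study concerns, passed as risen on day 3. Of all genes 10.7% rose and 7.24% fell, so lists this short hold few calls either way. Of 12 cardiac mesoderm and progenitor genes 2 fell, Bmp4 and the chromatin gene Smarcd3 (2.05-fold lower), and none rose. Differences in this list ranged from -2.41 to 0.80. With the 6 arrays alone, 1 rose and none fell. Of 12 cardiomyocyte genes Ryr2, the calcium release channel, fell 2.32-fold, while its second probe set differed by 0.12. Differences in this list ranged from -1.22 to 0.76. With the replicate block within the 6 arrays, 1 rose and 1 fell. Tnnt2, cardiac troponin T, had 5.64, 5.68 and 5.46 in day 3 control and 5.81, 5.41 and 5.59 on day 0, and Hand1 and Nkx2-5 did not pass, with differences of -0.08 and -0.27. Of 13 blood and endothelial genes Etv2 rose 1.44-fold, a call that held only without day 0 replicate 1 (adjusted p up to 0.28).

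Differences of cell cycle genes ranged from -1.05 to 1.30. Of 21 measured members 7 rose, against 10.7% of all genes, and 1 fell, against 7.24%. The G1 cyclins Ccnd1 (2.46-fold), Ccnd2 (2.17-fold) and Ccne2 (2.10-fold) rose, and Ccnd3 fell 2.07-fold with overlapping groups, a call lost without day 0 replicate 2 or 3 (adjusted p up to 0.062). Ccnd1 had 10.04, 10.33 and 10.45 in day 3 control and 9.75, 8.84 and 8.34 on day 0. Ccna2, Plk1, Cdk1 and Cdk4 rose between 1.32-fold and 1.43-fold. Leaving out day 0 replicate 1 ended these 4 calls and left 3 of the 21 risen, and each was also lost without at least 2 of the other arrays (adjusted p up to 0.19). Dropping an array of day 3 control left 3 of the 21 risen where it was replicate 1 and 4 where it was replicate 2. The proliferation marker Mki67 did not pass (0.25 ± 0.13).

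Beyond the lists, the rule of size named further genes. Among the 12 largest rises, Pkdcc, a secreted kinase gene, had 8.83, 8.85 and 7.55 in day 3 control and 5.04, 4.01 and 3.24 on day 0, where 2 stem cell arrays lay at the low end of the array's range (19.9-fold higher, adjusted p = 1.8e-06). Its place among the largest rises rests on this probe set, since the second, at means of 7.85 in day 3 control and 6.58 on day 0, differed by 1.28. Lpar4, a lysophosphatidic acid receptor gene, had 9.69, 9.60 and 9.63 in day 3 control and 8.40, 4.52 and 4.84 on day 0 (13.2-fold higher). Prickle1, a planar cell polarity gene, had 9.96, 10.00 and 9.58 in day 3 control and 7.08, 5.66 and 5.79 on day 0 (12.7-fold higher), while its other 2 probe sets differed by 0.11 and 0.46. Those of Lpar4 differed by 1.84 and 3.16. Fndc3c1 (11.9-fold) and the carbonic anhydrase Car4 (11.6-fold) complete that group. For Lpar4 and Fndc3c1, day 0 replicate 1 lay far above the other stem cell arrays and nearest to day 3.

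Among the 12 largest falls, Lgals3 (galectin-3) had 5.35, 5.55 and 5.02 in day 3 control and 8.22, 10.19 and 11.08 on day 0, 23.0-fold lower (adjusted p = 1.3e-05). Mymx, which encodes a small fusion protein of muscle, had 5.36, 5.43 and 5.35 in day 3 control and 7.85, 10.70 and 10.24 on day 0 (18.6-fold lower). Abcb1a, a drug efflux pump gene, had 3.39, 3.54 and 4.07 in day 3 control, at the low end of the range, and 6.69, 7.98 and 8.58 on day 0. Manba (14.9-fold), the F-box gene Fbxo15, a known OCT4 target in stem cells (12.9-fold), Enox1 (12.9-fold), Phf11d (12.8-fold), the membrane peptidase Mme (12.5-fold) and the germline gene Morc1 (12.0-fold) were also lower. Mme averaged 4.01 on day 2, 5.00 on day 3 and 8.11 on day 5, and the rise after day 3 passed the test (3.11, adjusted p = 1.7e-05). Second probe sets differed by -1.07 for Mme, -1.44 for Enox1 and -2.15 for Abcb1a.

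Whether ascorbic acid changed genes on day 3 depended on how the arrays were paired and on which arrays gave the spread. Same-numbered arrays of the 2 day 3 groups deviated together, so their numbers pair them. With the replicate number as a block within these 6 arrays, limma called 77 genes higher and 58 lower in day 3 AA than in day 3 control, together 0.742% of the genes, and none passed once any 1 of the 3 pairs was left out. Without a pair, few arrays remain to estimate the spread, so the loss does not decide whether these calls hold. In those fits 1064 to 1320 of 18193 genes had an unadjusted p under 0.05. Among unchanged genes a share of 0.05 reaches that level without any effect. Over all 21 arrays no gene passed, without the block (0 of 18193, lowest adjusted p = 0.39, 269 genes or 1.48% at an unadjusted p under 0.05) or with it (0, lowest adjusted p = 0.33, 328 genes at an unadjusted p under 0.05). Twist1 had 5.74, 5.49 and 5.74 in day 3 AA and 7.37, 7.09 and 6.46 in day 3 control, lower with ascorbic acid in 3 of 3 pairs. Its difference of -1.32 had an adjusted p of 0.0039 with the block within the 6 arrays, 0.34 with it over 21 arrays and 0.39 without it, and of up to 0.77 where a pair was left out.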

How the data were processed

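RNA of CGR8 cells was labelled from 100 ng of total RNA and hybridised to Affymetrix mouse arrays, per the labels' protocols. The deposited values are log2 intensities, normalised with RMA, per the submitters' processing notes, which name no version. They ranged from 2.51 to 14.51. Of 45101 probe sets, 34945 carried 1 gene symbol, 932 several and 9211 none. Controls numbered 64, a count that overlaps with these. RefSeq matched 34741, and 18193 genes were tested on their brightest probe set, of which 9010 had more than 1. limma 3.58.1 in R 4.3.3 was fitted with an intensity trend to 7 group means over all 21 arrays, with Benjamini-Hochberg adjustment at 0.05, and the method was tested on simulated data. Genes named are the 12 largest rises and falls that passed without overlap (clone names left out), fixed markers, and members of 36 gene lists. The members and lists were chosen with earlier results of these data known. Levels of 4 or less were treated as near background and given no fold. Day 3 control and day 0 were not treated as paired. Day 3 AA and day 3 control were paired by replicate number, a pairing read from the data, since their same-numbered arrays deviated from their group means with correlations of 0.495, 0.459 and 0.679. Alternatives covered the arrays fitted, normalization, probe sets, filters, blocks and omission of each array. Precision is limited by the 3 arrays per group. Figures were drawn with matplotlib.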

Additional observations from a re-analysis of the deposited data

How the results depend on the processing

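The counts of genes depended on which arrays supplied the spread. With only the 6 arrays, 1581 genes changed (1044 rose, 537 fell), and with the replicate block within these 6, 1089 (660 rose, 429 fell). The replicate block over all 21 arrays gave 3770. Arrays with the same number in the 2 groups deviated from their group means with correlations of 0.127, 0.146 and 0.036, so the numbers were not taken as pairs. Requiring a 2-fold difference left 927 (478 rose, 449 fell). Leaving out 1 array gave 2349 to 3981 changed genes, 1369 to 2076 that rose and 874 to 1905 that fell. Every other alternative kept the 3 counts within 1.5 times. Among 405 named or listed genes, 164 passed, 121 of them in all 6 single omissions and 79 under every one of 19 alternatives. Of the 24 largest changes 20 passed under all of them: the block of 6 arrays ended those of Lpar4 (adjusted p = 0.052), Mixl1 (0.062) and Tcl1 (0.052), and the median over probe sets that of Amot (0.21, adjusted p = 0.42). With the median over probe sets, Fzd6 (-0.04) and Fgfr1 (-0.20) changed sign and no longer passed, while Pax6 (-0.53, adjusted p = 0.031) and Zfp521 (0.71, adjusted p = 0.025), which had not passed, passed with the other sign, since other probe sets then decide the value. With only the 6 arrays, 15 naive genes fell, 9 primed, 7 streak and 2 definitive endoderm genes rose, and 51 of the 164 calls were lost. There 4 HIF and glycolysis and 2 germline genes fell, and 3 cholesterol, 3 Wnt receptor and amplifier, 4 Wnt factor and target and 4 cell cycle genes rose. The block within 6 arrays lost 74 of the 164 calls and left 10 naive genes that fell and 6 primed, 6 streak and no definitive endoderm genes that rose. Between day 3 AA and day 3 control, where the alternatives were chosen after seeing the data, the 6 arrays alone gave 5 genes and the replicate block within them 135, against 0 over all 21 arrays and 0 to 1 with 1 array or pair left out. The fits without a pair had too few arrays to decide. Signal near the low end of the range limits Prdm14, Abcb1a, Wnt3, Pkdcc and Cdh11.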

Other observations

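Several metabolic and stress genes changed beside those described. Of 20 measured hypoxia-inducible factor (HIF) targets and glycolysis genes 8 fell and none rose, with a median of -0.40. Pfkp, a phosphofructokinase gene, had 7.63, 7.80 and 8.23 in day 3 control and 9.89, 12.08 and 11.61 on day 0, 9.89-fold lower (limma adjusted p = 1.2e-05). The glucose transporter Slc2a3 was 2.64-fold and hexokinase Hk2 2.23-fold lower, while the enzymes Pkm, Pgk1 and Aldoa did not pass, with differences of 0.07, -0.19 and -0.25. Vegfa had 6.48, 6.61 and 6.02 in day 3 control and 6.20, 9.07 and 8.57 on day 0, and its call (2.98-fold lower) held, among omissions of 1 array, only without day 0 replicate 1 or day 3 control replicate 2 (adjusted p up to 0.16). Of the 20, 3 fell when day 0 replicate 2 was dropped, and 7 when day 0 replicate 1 was, where 1 rose. Dropping an array of day 3 control left 4 that fell where it was replicate 1 and 5 where it was replicate 2.

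Of 15 cholesterol synthesis genes 5 rose and none fell, with a median of 0.65. Idi1 had 10.92, 10.82 and 11.38 in day 3 control and 9.66, 9.62 and 9.27 on day 0, 2.87-fold higher (limma adjusted p = 4.7e-06), and Hmgcs1, the entry enzyme of the pathway, was 2.85-fold and Sc5d 2.80-fold higher. The number that rose was 3 without day 0 replicate 1, where the calls of Cyp51 and Mvd were lost, 3 without day 3 control replicate 3, 12 without day 0 replicate 2 and 9 with the replicate block over 21 arrays. Of 17 immediate early and heat shock genes 5 fell and none rose. Fos had 7.82, 7.67 and 6.95 in day 3 control and 10.57, 9.51 and 8.93 on day 0, 4.56-fold lower, and the small heat shock gene Hspb1 was 4.86-fold lower. Of 5 measured genes of 2-cell-like cells Tcstv1 fell, at levels of 3.38, 3.53 and 3.56 in day 3 control and 4.04, 3.56 and 4.09 on day 0, near the low end of the range, a call lost without day 0 replicate 1 or 3 or day 3 control replicate 1 (adjusted p up to 0.12).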
